A study of Homo sapiens with 15 samples.

Results

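The 10 genes described here encode the enzymes that build and edit heparan sulfate: EXT1, EXT2, EXTL2, EXTL3, NDST1, NDST2, HS2ST1, HS6ST1, GLCE and SULF2. They were chosen by symbol, as the rows that carry these names among the 59608 genes of the table. The rule uses no measured value, but the list was drawn up with earlier results of these data known, so it is not a blind choice. All 10 were found, and 8 of them passed a filter on low values, which asked for 10 normalized counts on average over the libraries and which 13561 genes passed in all. NDST2 and SULF2 were under this filter.

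RNA was measured in MDA-MB-231, an established human breast cancer line of mesenchymal-like character, grown as a 2D layer in dishes. The cells were exposed for 6 h to 0.1% DMSO, the vehicle, or to ZJ-101 at 0.5, 5, 50 or 500 nM. ZJ-101 is a truncated synthetic analog of superstolide A, a macrolide from a marine sponge. Each of the 5 groups had 3 biological replicates, so 15 libraries of poly-A RNA were compared, and every group came from this single line at this single time. The time was chosen in the study to precede the change in cell shape, and the comparison asks how transcripts respond to dose.

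The libraries held 12415519 to 15284762 recovered reads on genes, and mitochondrial genes took 0.889% to 2.06% of them. Markers of the line were high in all 15 libraries, with VIM at 13433 to 18413 normalized counts and EGFR at 3471 to 8610. Of the 5 markers listed as absent or low in this line, ESR1 reached at most 4.30 normalized counts and PGR lay between 5.37 and 17.3. CDH1 was at 107 to 206, EPCAM at 266 to 320.2 and ERBB2 at 1136 to 1328, so these were not absent, and the 5 summed to 1547 to 1792 per library. Of the markers of other cell types, CD3E was at 0 in 15 libraries and PTPRC, CDH5 and ALB reached at most 3.53, whereas PECAM1 lay between 201 and 321. A normalized count is a read count divided by the size factor of its library, so it is relative to the other transcripts of that library. Fewer cells with a transcript and less of that transcript per cell cannot be told apart in such bulk RNA.

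Heparan sulfate is a long unbranched sugar chain made in the Golgi on a small set of core proteins, and it holds growth factors, chemokines and matrix proteins at the cell surface. A short linker is first attached to the core protein, and a repeating pair of glucuronic acid and N-acetylglucosamine is then polymerized onto it. Sulfotransferases and an epimerase modify the chain in patches, and extracellular sulfatases trim the sulfate afterwards.

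The upstream sequences of 4 genes that fell together, EXTL2, HS2ST1, HS6ST1 and GLCE, are shown beside that of EXT2, whose level did not pass the test at any dose. Each runs 5′ to 3′ on the strand of its gene over the 250 bases before the RefSeq start on GRCh38.p14. The windows are chr1:100894843-100895092 for EXTL2, chr1:86914385-86914634 for HS2ST1, chr2:128318869-128319118 for HS6ST1, chr15:69160385-69160634 for GLCE and chr11:44095428-44095677 for EXT2. Capitals mark GGGCGG, the GC box, and CCAAT, the CCAAT box, on either strand.
EXTL2: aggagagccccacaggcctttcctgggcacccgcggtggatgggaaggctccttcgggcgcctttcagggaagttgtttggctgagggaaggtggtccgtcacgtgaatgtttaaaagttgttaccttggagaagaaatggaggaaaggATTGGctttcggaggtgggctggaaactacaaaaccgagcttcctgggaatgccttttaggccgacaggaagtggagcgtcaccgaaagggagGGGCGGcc
HS2ST1: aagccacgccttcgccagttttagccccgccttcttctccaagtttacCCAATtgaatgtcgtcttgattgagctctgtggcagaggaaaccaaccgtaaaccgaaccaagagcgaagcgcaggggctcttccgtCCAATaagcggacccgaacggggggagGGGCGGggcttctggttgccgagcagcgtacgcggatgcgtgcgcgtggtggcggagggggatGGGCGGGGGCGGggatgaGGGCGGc
HS6ST1: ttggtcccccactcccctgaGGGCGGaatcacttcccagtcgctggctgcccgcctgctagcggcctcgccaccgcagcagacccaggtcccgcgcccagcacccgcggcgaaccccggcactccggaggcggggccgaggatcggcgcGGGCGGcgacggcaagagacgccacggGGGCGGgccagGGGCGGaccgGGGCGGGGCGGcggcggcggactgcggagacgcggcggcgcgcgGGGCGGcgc
GLCE: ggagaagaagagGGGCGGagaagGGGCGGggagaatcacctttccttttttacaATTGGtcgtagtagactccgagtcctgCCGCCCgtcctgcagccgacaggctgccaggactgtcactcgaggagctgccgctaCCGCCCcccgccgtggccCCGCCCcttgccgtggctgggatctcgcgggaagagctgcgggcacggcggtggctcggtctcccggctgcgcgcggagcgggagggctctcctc
EXT2: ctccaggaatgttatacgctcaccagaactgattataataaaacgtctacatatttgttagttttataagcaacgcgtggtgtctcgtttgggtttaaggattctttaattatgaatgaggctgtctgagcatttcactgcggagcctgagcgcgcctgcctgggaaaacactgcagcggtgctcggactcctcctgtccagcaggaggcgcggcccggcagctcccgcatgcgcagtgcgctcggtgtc
The GC box matched 1 time in the window of EXTL2, 4 times in that of HS2ST1, 7 times in that of HS6ST1, 5 times in that of GLCE and 0 times in that of EXT2. Of 34943 promoter windows of the same length, 42.55% held at least 1 GC box. The CCAAT box matched 1 time in EXTL2, 2 times in HS2ST1, 1 time in GLCE and 0 times in HS6ST1 and EXT2, where 32.04% of all windows held it. CACGTG, an E-box, matched only EXTL2 among these 5 windows, 1 time, where 6.32% of all windows held it, and TGACGT, a core of cyclic AMP response elements, matched 0 times, where 7.09% held it. EXT2 has 3 windows in the RefSeq table, and the one at the start of its canonical transcript is shown, whereas the other windows, which begin inside the gene, held 2 GC boxes each. The 4 genes that fell have 1 window each, so the count of 0 in EXT2 holds for the shown window only. Matches of different motifs shared 0 letters in the shown windows, and a match is letters in a window, not a site of binding. Windows for 8 of the 10 members were in the RefSeq table, and that of NDST1 starts 10352 bases from the start of its canonical transcript and is not shown. No window was matched for EXT1 and EXTL3.

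The members lie on 8 chromosomes, and all of them are protein-coding in GENCODE release 44 on GRCh38. The genes of chain growth are EXT1 (chromosome 8, 117794490 to 118111826, minus strand), EXT2 (chromosome 11, 44095648 to 44251962, plus strand), EXTL2 (chromosome 1, 100872372 to 100895179, minus strand) and EXTL3 (chromosome 8, 28600469 to 28756561, plus strand). The genes of modification are NDST1 (chromosome 5, 150485818 to 150558211, plus strand), NDST2 (chromosome 10, 73801911 to 73811798, minus strand), GLCE (chromosome 15, 69160584 to 69272217, plus strand), HS2ST1 (chromosome 1, 86914635 to 87109982, plus strand) and HS6ST1 (chromosome 2, 128236716 to 128318868, minus strand). SULF2, the extracellular sulfatase, spans 47656197 to 47786616 on the minus strand of chromosome 20.

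Levels of different genes were compared per kilobase of the canonical transcript. In DMSO, EXT1 was the most abundant member at 488 ± 10.2 normalized counts per kilobase (SD, n = 3). NDST1 at 290.2 ± 3.96 and EXT2 at 284 ± 12.2 per kilobase followed, and their libraries overlapped. GLCE at 195 ± 16.3 and EXTL2 at 184 ± 10.2 per kilobase overlapped as well, as did HS6ST1 at 132 ± 6.41 and HS2ST1 at 131 ± 4.82. EXTL3 was the lowest of the tested members at 107 ± 4.5 normalized counts per kilobase. At 500 nM the levels of EXT1, NDST1 and EXT2 had drawn closer, at 316 ± 8.71, 283 ± 10.9 and 276 ± 8.74 normalized counts per kilobase, with EXT1 still above both in all 3 libraries.

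Transcripts of 6 of the 8 tested enzymes fell at 50 and 500 nM ZJ-101: EXT1, EXTL2, EXTL3, GLCE, HS2ST1 and HS6ST1. At 500 nM GLCE fell by 35.6% and EXTL2, the least changed of the 6, fell by 24.6%. At 50 nM GLCE fell by 30.8% and HS6ST1 fell by 20.3%. EXT2 and NDST1, which act beside enzymes that fell, did not pass the test at either dose. At 0.5 and 5 nM, 0 of the 8 members passed. These falls are fold changes on the scale of log2(normalized count + 1), from limma over all 13561 tested genes with Benjamini-Hochberg adjustment, and the 4 doses share the 3 DMSO libraries.

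Of all tested genes, 3.71% were called lower at 50 nM and 10.1% at 500 nM, against 6 of 8 members at each dose. The median log2 fold change of the 8 members was −0.35 at 50 nM and −0.45 at 500 nM, where that of all tested genes was −0.002 and 0.003. At 0.5 nM, 1.17% of all tested genes were called in either direction, and at 5 nM 2.18% were. Libraries of a dose did not overlap DMSO and lay below it for 1, 2, 7 and 6 members in order of dose, where 10.7%, 12.7%, 13.2% and 19.6% of all tested genes had this pattern. At 0.5 and 5 nM the member medians were −0.08 and −0.10. Among the 8 members, 2 had an unadjusted p under 0.05 at 0.5 nM and 1 at 5 nM in limma. At 0.5 nM GLCE, inside this cut, ranked 756 by p among the 13561 tested genes, and HS6ST1, outside it, ranked 2033. At 5 nM EXT1, inside the cut, ranked 1028 and HS6ST1, outside it, ranked 1967. The cut thus took in many other genes, and the member counts were not tested against that share. With edgeR and DESeq2 on the recovered reads, 0 members were called at both doses. The tested members had 338 to 4231 reads per library, which gives a counting SD of 5.44% to 1.54%, and the SD between replicates was 0.300% to 12.2% of the group mean with a median of 4.74%.

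**Figure D1:**
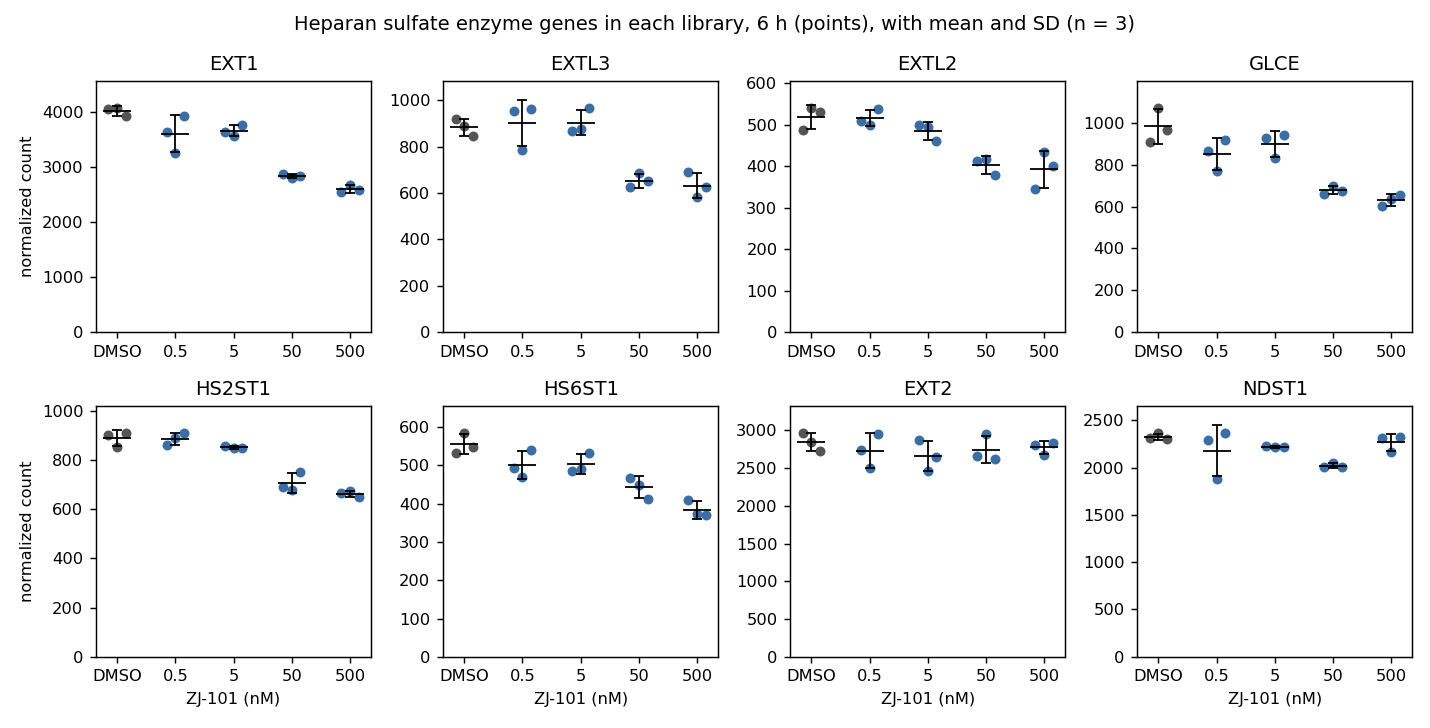
Normalized counts of the 8 tested enzymes (vertical axes from 0, separate for each gene) by ZJ-101 dose in nM, with DMSO in gray and ZJ-101 in blue; points are libraries, and bars give the mean and SD of 3. EXT1, EXTL3, EXTL2, GLCE, HS2ST1 and HS6ST1 sit lower at 50 and 500 nM than in DMSO in every library, whereas EXT2 overlaps DMSO at all 4 doses.

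Chain growth begins with EXTL3, which adds the first N-acetylglucosamine to the linker and so commits it to heparan sulfate. EXTL3 stood at 918, 887 and 844 normalized counts in DMSO, 955, 785 and 963 at 0.5 nM, 868, 875 and 966 at 5 nM, 624, 684 and 651 at 50 nM, and 689, 581 and 625 at 500 nM. The libraries of 50 and 500 nM all lay below those of the other 3 groups, which overlapped one another. The log2 fold change was −0.43 at 50 nM (adjusted p = 0.00133, limma) and −0.49 ± 0.08 (SE) at 500 nM (adjusted p = 0.000189, limma).

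EXT1 and EXT2 are the partners of the polymerase that lengthens the chain, and inherited loss of either gene causes multiple osteochondromas. EXT1 was counted at 4066, 4081 and 3928 in DMSO, 3651, 3263 and 3925 at 0.5 nM, 3641, 3575 and 3774 at 5 nM, 2886, 2808 and 2849 at 50 nM, and 2544, 2685 and 2593 at 500 nM. All 12 treated libraries were below the lowest DMSO library, and those of 50 and 500 nM did not overlap each other. The log2 fold change was −0.16 at 0.5 nM (adjusted p = 0.156) and −0.14 at 5 nM (adjusted p = 0.247), neither past the threshold in limma. It was −0.50 at 50 nM (adjusted p = 3.21e-06) and −0.63 ± 0.05 (SE) at 500 nM (adjusted p = 7.06e-08) in limma, a fall of 35.2% at the highest dose. Leaving out replicate 3 of 0.5 nM brought EXT1 past the threshold at 0.5 nM, at −0.22 (adjusted p = 0.0244, limma), and leaving out replicate 2 of 0.5 nM did so at 5 nM (adjusted p = 0.0419, limma).

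EXT2 was counted at 2971, 2844 and 2727 in DMSO, 2743, 2497 and 2959 at 0.5 nM, 2869, 2465 and 2652 at 5 nM, 2659, 2947 and 2626 at 50 nM, and 2811, 2674 and 2838 at 500 nM. Every dose overlapped DMSO. The difference at 500 nM was −0.04 on the log2 scale with a 95% interval of −0.17 to 0.10 (adjusted p = 0.766, limma), and at 50 nM it was −0.05 (adjusted p = 0.755, limma).

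The log2 ratio of EXT1 to EXT2 within each library gives the partners' unequal change without any scaling between libraries. It is a ratio of normalized counts not divided by length, so only its change can be read. The ratio was 0.50 ± 0.04 (SD, n = 3) in DMSO, 0.40 ± 0.01 at 0.5 nM and 0.46 ± 0.10 at 5 nM. It was 0.06 ± 0.11 at 50 nM and −0.09 ± 0.08 at 500 nM. The 3 libraries of 50 nM and of 500 nM, at most 0.12 and 0.01, lay below those of DMSO, which ran from 0.45 to 0.53. Those of 0.5 nM, at most 0.41, also lay below DMSO, and those of 5 nM overlapped it. Differences from DMSO were −0.10, −0.04, −0.44 and −0.59 in order of dose, with p = 0.1, 0.7, 0.1 and 0.1 in a two-sided exact permutation test, whose smallest possible p with 3 against 3 libraries is 0.1.

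**Figure D2:**
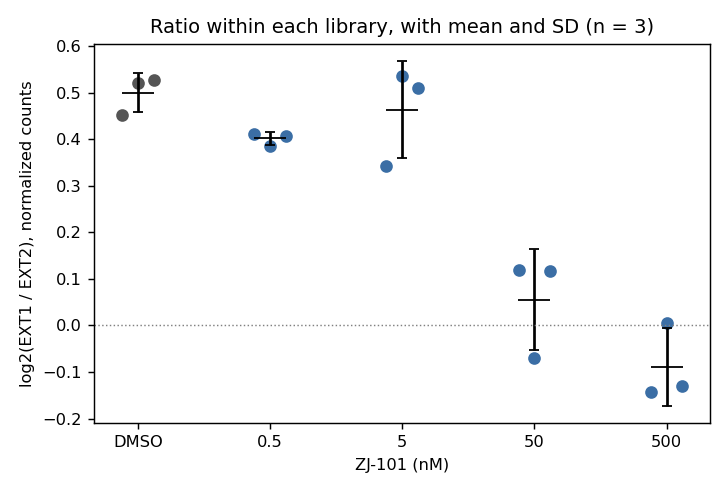
Log2 ratio of EXT1 to EXT2 normalized counts in each library (vertical axis, does not start at 0) by ZJ-101 dose in nM, with DMSO in gray; points are libraries and bars the mean and SD of 3, and the dotted line marks equal normalized counts. The DMSO libraries run from 0.45 to 0.53 and those of 500 nM from −0.14 to 0.01.

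EXTL2 transfers N-acetylglucosamine to a phosphorylated linker, a step that stops the chain from growing. It measured 486, 540.2 and 531 in DMSO, 509.9, 499.6 and 538 at 0.5 nM, 499.8, 494 and 459 at 5 nM, 413, 417 and 378 at 50 nM, and 344, 433 and 400.1 at 500 nM. The 6 libraries of the higher doses were all below the DMSO libraries. The log2 fold change was −0.37 at 50 nM (adjusted p = 0.00548, limma) and −0.41 ± 0.08 (SE) at 500 nM (adjusted p = 0.000943, limma).

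NDST1 removes acetyl groups from N-acetylglucosamine and puts sulfate in their place, the step on which later modification of the chain depends. Its normalized counts were 2310.2, 2361 and 2303 in DMSO, 2296, 1875 and 2370.2 at 0.5 nM, 2226, 2213 and 2217 at 5 nM, 2005, 2048 and 2003 at 50 nM, and 2313, 2167 and 2324 at 500 nM. The libraries of 5 and 50 nM lay below DMSO, and those of 500 nM overlapped DMSO and lay above those of 50 nM. The difference from DMSO at 50 nM was −0.20 on the log2 scale with a 95% interval of −0.34 to −0.07, and it missed the threshold (adjusted p = 0.0653, limma). It passed with DESeq2 on the recovered reads (adjusted p = 0.0359), in limma with the 6 libraries of the comparison alone (adjusted p = 0.00296), and in limma without replicate 2 or replicate 3 of 0.5 nM (adjusted p = 0.000658 and 0.0326). At 500 nM the difference was −0.04 with a 95% interval of −0.17 to 0.10 (adjusted p = 0.763, limma).

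NDST2, a second N-deacetylase/N-sulfotransferase, had 32 reads in the 15 libraries together and at most 4 in any of them. Its canonical transcript shares 99.02% of its bases with a readthrough gene on the same strand, so reads from this locus could be split or dropped in counting, and its level is uncertain.

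GLCE turns glucuronic acid of the chain into iduronic acid, which gives the chain its flexibility. GLCE stood at 909, 1071 and 968 in DMSO, 865, 768 and 919 at 0.5 nM, 928, 829.8 and 944 at 5 nM, 661, 699.7 and 674 at 50 nM, and 601, 636 and 656 at 500 nM. The higher doses lay below all 9 libraries of DMSO, 0.5 nM and 5 nM. GLCE changed by −0.53 on the log2 scale at 50 nM (adjusted p = 7.32e-05, limma) and −0.64 ± 0.07 (SE) at 500 nM (adjusted p = 3.81e-06, limma). At 0.5 nM it was −0.21 (adjusted p = 0.181, limma), with 1 library of that dose inside the range of DMSO.

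HS2ST1 adds sulfate to position 2 of iduronic acid, directly after the step of GLCE. Values were 902, 851 and 911 in DMSO, 861, 889 and 908 at 0.5 nM, 857, 847 and 848 at 5 nM, 689, 679 and 752 at 50 nM, and 667, 674 and 649 at 500 nM. The libraries of 500 nM were within 649 to 674 and below every library of the lower doses. HS2ST1 fell by 20.5% at 50 nM (log2 fold change −0.33, adjusted p = 0.000264, limma) and by 25.3% at 500 nM (−0.42 ± 0.05 SE, adjusted p = 7.47e-06, limma). A readthrough gene covers 10.65% of its canonical transcript.

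HS6ST1 adds sulfate to position 6 of the glucosamine units, a mark used by fibroblast growth factors and their receptors. It was counted at 533, 586 and 548 in DMSO, 492, 469.5 and 541 at 0.5 nM, 484, 491 and 534 at 5 nM, 467, 449.7 and 412 at 50 nM, and 411, 372 and 369 at 500 nM. The libraries of 500 nM lay below all of those of the other 4 groups. The log2 fold change was −0.33 at 50 nM (adjusted p = 0.00755, limma) and −0.53 ± 0.07 (SE) at 500 nM (adjusted p = 2.68e-05, limma). At 50 nM the call was lost without DMSO replicate 2 (−0.29, adjusted p = 0.0557, limma) and without replicate 3 of 50 nM (−0.28, adjusted p = 0.0548, limma).

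SULF2 removes sulfate from position 6 outside the cell. It had 5 reads in the 15 libraries, never more than 1 in a library. In DMSO it had 0 of 40732780 reads, which allows up to 0.0737 CPM (reads scaled to the library total), and at 500 nM 0 of 41813457, which allows up to 0.0718 CPM. These limits cover counting error only, and no difference was detectable at this depth.

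**Figure D3:**
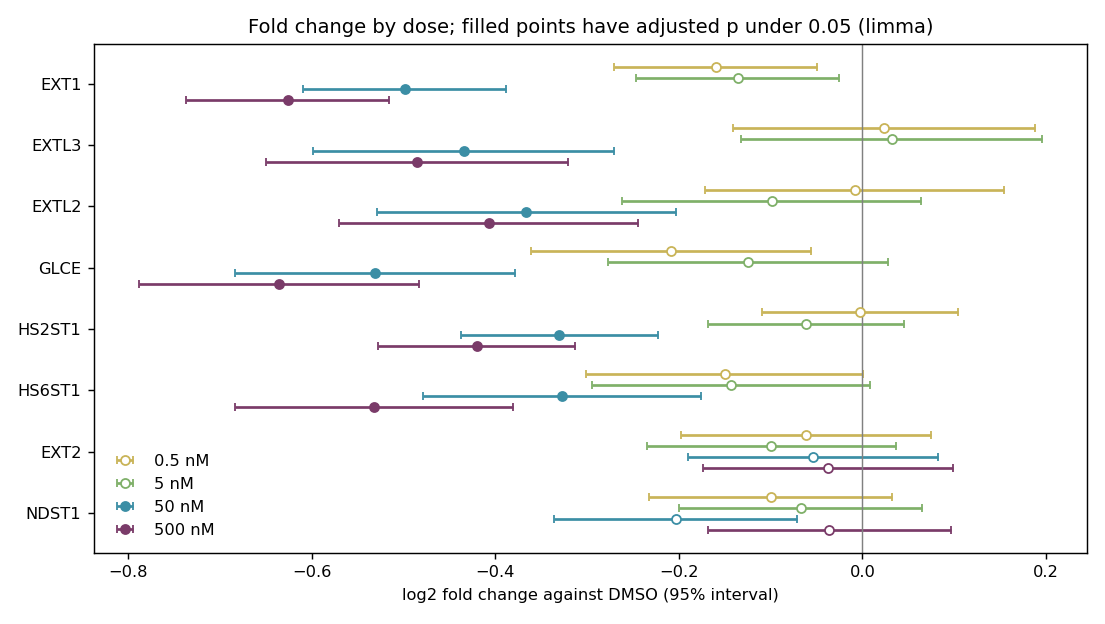
Log2 fold change against DMSO (horizontal axis) with its 95% interval for the 8 tested enzymes at 4 doses, from limma with 15 libraries; filled points have an adjusted p under 0.05. Filled points are present for 6 genes at 50 and 500 nM and for none at 0.5 and 5 nM, and the intervals of EXT2 cross 0 at every dose.

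The step from 5 to 50 nM carried 4 of the calls between neighboring doses, a comparison that does not use the DMSO libraries. EXTL3 fell by 0.47 on the log2 scale over this step (adjusted p = 0.00109, limma), GLCE by 0.41 (adjusted p = 0.0019), EXT1 by 0.36 (adjusted p = 0.000267) and HS2ST1 by 0.27 (adjusted p = 0.00314). Of all tested genes, 2.39% were called lower over this step. EXTL2 at −0.27 (adjusted p = 0.055) and HS6ST1 at −0.18 (adjusted p = 0.176) did not pass in limma. EXTL2 passed this step in limma with TMM scaling (adjusted p = 0.0461), with a minimum mean of 50 (0.048), with the 6 libraries of the comparison alone (0.0285), and without replicate 2 of 0.5 nM (0.0308), replicate 1 of 500 nM (0.0252) or replicate 2 of 500 nM (0.0401). NDST1, at −0.14 (adjusted p = 0.266), passed it in limma without replicate 2 of 0.5 nM (adjusted p = 0.0219). Libraries of 50 nM lay below those of 5 nM without overlap for 7 of the 8 members, EXT2 being the exception, where 11.8% of all tested genes had this pattern.

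Over the steps from 0.5 to 5 nM and from 50 to 500 nM, 0 members passed in limma, where 0.118% and 2.28% of all tested genes were called. At an unadjusted p under 0.05 there were 0 and 3 members, and edgeR and DESeq2 on the recovered reads called 0 at both steps. Over the step from 50 to 500 nM, EXT1, inside this cut, ranked 1177 by p among the 13561 tested genes. HS2ST1, outside the cut, ranked 2652, so the 3 members stand beside many other genes. From 50 to 500 nM the values were −0.13 for EXT1 (adjusted p = 0.3), −0.20 for HS6ST1 (adjusted p = 0.194) and 0.17 for NDST1 (adjusted p = 0.238) in limma. NDST1 was the only member whose 500 nM libraries all lay above those of 50 nM, where 9.67% of all tested genes had this pattern. It passed this step in limma once replicate 2 of 0.5 nM was left out (adjusted p = 0.00892). For 4 members, EXT1, GLCE, HS2ST1 and HS6ST1, the 500 nM libraries all lay below those of 50 nM. The share of all tested genes with that lower pattern is not given here.

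The slope over the 5 ranked groups, from DMSO to 500 nM, was negative and past the threshold for the 6 genes, where 9.33% of all tested genes had such a slope. It was −0.16 per rank on the log2 scale for EXT1 (adjusted p = 8.26e-07, limma) and for GLCE (adjusted p = 1.63e-05), −0.14 for EXTL3 (adjusted p = 0.000395) and −0.12 for HS6ST1, EXTL2 and HS2ST1 (adjusted p = 3.05e-05, 0.000151 and 1.03e-05). NDST1 at −0.02 (adjusted p = 0.535) and EXT2 at −0.01 (adjusted p = 0.813) did not pass in limma.

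Replicate 2 of 0.5 nM stood apart over the whole table, not for these genes alone. Its chi-square over degrees of freedom against the other replicates of its group was 11.1 and 16.5, where other pairs of replicates had 2.04 to 6.27. It was the lowest of its group for 7 of the 8 tested members, with a median deviation from the group mean of −0.13 on the log2 scale over the members, and replicate 3 of that group deviated by 0.11. Without replicate 2, 6 members were called at 500 nM and 7 at 50 nM in limma. All genes called lower at 50 nM then numbered 737, against 503 with all libraries. At 500 nM all genes called in either direction numbered 1796 to 3098 with single libraries left out.

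Across the 15 libraries, Pearson's r of log2 values between pairs of the 6 genes that fell was 0.77 to 0.97 over 15 pairs. EXT2 correlated with them at −0.05 to 0.18 and NDST1 at 0.21 to 0.45. Within groups, after the group means were removed, the 15 pairs ran from −0.42 to 0.68. There EXT2 with the 6 genes ran from −0.175 to 0.63 and NDST1 from −0.15 to 0.79, so the ranges overlapped. These values describe libraries that share the same doses and carry no test. The 6 were grouped by their fall in these same libraries, so a higher r among them over the 15 libraries was built in. The tested genes most like each member over the 15 libraries were CD44, the hyaluronan receptor, and POFUT1, a protein O-fucosyltransferase, for EXT1 (r = 0.99 for both). They were GINM1 (0.95) and BLOC1S5 (0.94) for EXTL2, FLRT2 and MLEC (0.97 for both) for EXTL3, KLF10 (0.98) and MMP14 (0.97) for HS2ST1, CLSTN1 (0.97) and COL5A1 (0.96) for HS6ST1, and EXT1 (0.97) and SCARA3 (0.96) for GLCE.

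The rest of the pathway was followed in 6 lists of genes. Of 13 other heparan sulfate enzymes, 4 were tested and 1 fell at 500 nM. This was HS3ST1, which adds the rare sulfate that antithrombin binds, at 236 ± 12.7 normalized counts in DMSO and 145 ± 19.4 at 500 nM (SD, n = 3, log2 fold change −0.71, adjusted p = 0.000107, limma). HS3ST3B1 (−0.03) and HS6ST3 (−0.11) did not pass. NDST3 did not pass either, at −0.71 ± 0.39 (SE, adjusted p = 0.248, limma). Its mean of 13.96 normalized counts lay near the filter, so this value is imprecise. Of 7 genes of the linker, 6 were tested and 2 fell: PXYLP1, the phosphatase that frees the linker for growth, at −0.46 (adjusted p = 0.00165, limma) and XYLT2, which adds the first xylose, at −0.31 (adjusted p = 0.00342, limma). XYLT1, the other xylosyltransferase, had 0 reads. Across all tested genes, 10.1% were called lower at 500 nM, beside the 1 of 4 and 2 of 6 in these lists. Called higher were 7.69% of all tested genes and 0 genes of both lists.

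Core proteins, which carry the chains, fell in 8 of 10 tested genes among 14 listed, with a median log2 fold change of −0.44 and 10.1% of all tested genes called lower at 500 nM. SDC3 (−0.89, adjusted p = 4.45e-09), AGRN (−0.62, adjusted p = 6.44e-08) and SDC2 (−0.62, adjusted p = 2.99e-08) fell furthest in limma. HSPG2, the basement membrane proteoglycan perlecan, measured 0.42 (adjusted p = 0.0655, limma) and was not called, nor was SDC1. HSPG2 passed with edgeR on the recovered reads (adjusted p = 0.0469) and in limma with the 6 libraries of the comparison alone (adjusted p = 0.00297). It also passed in limma without replicate 2 or replicate 3 of 0.5 nM (adjusted p = 0.00209 and 0.0369) and with a block for the replicate number (adjusted p = 0.0203). In the other alternatives HSPG2 did not pass, among them DESeq2 on the recovered reads (adjusted p = 0.095) and limma with TMM scaling (adjusted p = 0.0683). Without replicate 1 of 500 nM it measured 0.29 (adjusted p = 0.283, limma). Its slope was positive and past the threshold (0.11, adjusted p = 0.0459, limma). At 0.5 nM 3 core proteins were called lower and at 5 nM 4 were, where 0.922% and 1.71% of all tested genes were called lower. With single libraries left out these counts ran from 0 to 5 and from 2 to 4. In the other alternatives they ran from 0 to 3 and from 3 to 5. Genes that supply sulfate and sugar donors had a median of −0.03, with 3 of 13 called lower, beside the 10.1% of all tested genes. These were BPNT2, a Golgi phosphatase for the by-product of sulfation, at −0.41 (adjusted p = 2.29e-05, limma), UGDH, which makes UDP-glucuronic acid, at −0.23 (adjusted p = 0.00122, limma), and UGP2, which makes UDP-glucose, at −0.20 (adjusted p = 0.0198, limma). The call of UGP2 was lost without DMSO replicate 2 (adjusted p = 0.0907, limma), DMSO replicate 3 (0.0545) or replicate 3 of 500 nM (0.0696).

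Of 9 genes of heparan sulfate breakdown, 3 fell at 500 nM: NAGLU (−1.06, adjusted p = 1.52e-07, limma) and SGSH (−0.88, adjusted p = 6.46e-07, limma), lysosomal enzymes, and HPSE, the heparanase that cuts chains (−0.29, adjusted p = 0.00155, limma). These 3 of 9, and the 9 of 14 chondroitin genes that follow, stand beside the same 10.1% of all tested genes. NAGLU shares 15.3% of its canonical transcript with another gene. Enzymes of chondroitin and dermatan sulfate, the sister chain on the same linker, had 9 called lower and 1 higher of 14 tested among 16 listed. CHPF (−1.75, adjusted p = 1.93e-11), CHSY3 (−1.44, adjusted p = 5.34e-06) and CHPF2 (−1.36, adjusted p = 1.2e-10), partners of the chondroitin polymerase, fell furthest in limma. CSGALNACT2, which starts the chondroitin chain, rose by 0.23 (adjusted p = 0.00061, limma). The median of this list was −0.39, beside −0.45 for the 8 heparan sulfate enzymes.

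**Figure D4:**
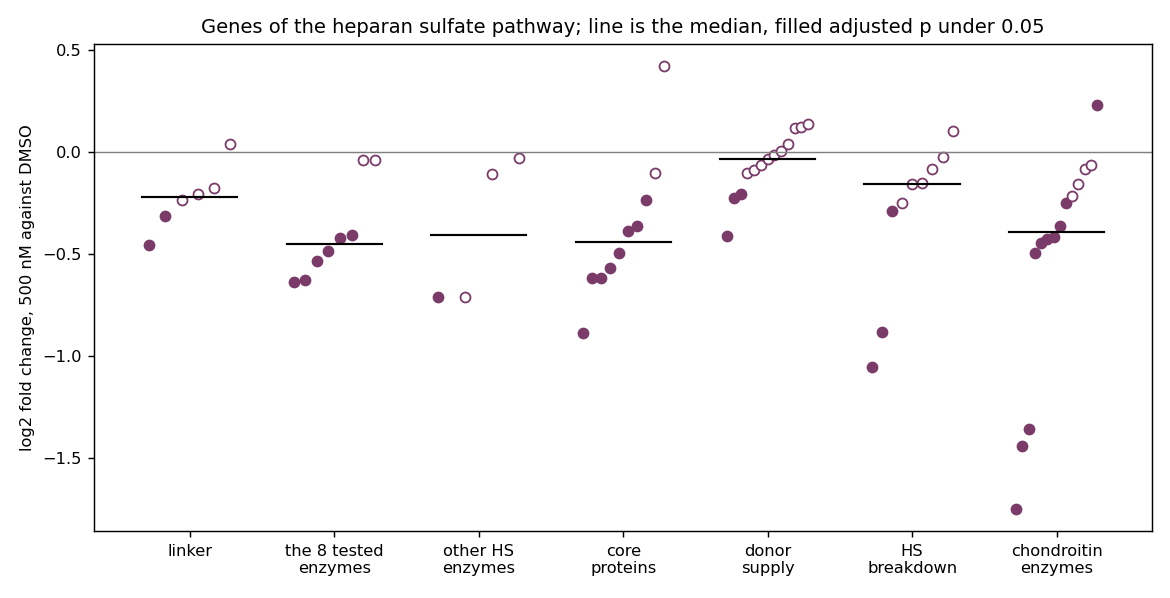
Log2 fold change at 500 nM against DMSO (vertical axis) for the tested genes of the pathway in 7 groups; each point is a gene, filled where the adjusted p in limma is under 0.05, and lines are group medians. The 8 tested enzymes have a median of −0.45, the core proteins −0.44 and the genes of donor supply −0.03.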

How the data were processed

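Signal values were made by the authors: paired reads of poly-A RNA were aligned to hg38 with HISAT2, counted per gene with HTSeq, and the counts of each library were divided by a DESeq2 size factor. Versions and strandedness are not given in the sources used here. The deposited table holds 59608 genes, and 1 line of doses was left out. Values divided by each library's smallest step gave whole reads for 100.0% of values within 0.001 (largest distance 4.34e-05), with size factors of 0.916 to 1.13. Chi-square over degrees of freedom was 2.04 to 16.5 between replicates, above sampling noise, so none was a duplicate.

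The count test of the study was replaced by one that fits these values. Limma 3.58.1 with a trend was run on log2(normalized count + 1) for the 13561 genes that averaged at least 10, with the 5 groups in 1 fit (10 residual degrees of freedom), Benjamini-Hochberg adjustment and a threshold of 0.05. The slope over ranked doses had its own fit. Comparisons were each dose against DMSO and each dose against the next. The fits were tested on simulated data. The members and the gene lists (other heparan sulfate enzymes, linker, core proteins, donor supply, breakdown, chondroitin enzymes) were chosen with earlier results of these data known. Genes named are the members, up to 3 rises and 3 falls per list at 500 nM, and the 2 genes most like each called member. HSPG2, SDC1, XYLT1, NDST3, HS3ST3B1 and HS6ST3 were named after their values had been seen.

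Alternatives were pseudocounts of 0.5 and 5, no filter, a filter at a mean of 50, TMM scaling, a block for the replicate number, the same total per library, edgeR 4.0.16 and DESeq2 1.42.0 on the recovered reads, the 6 libraries of a comparison alone, the 12 treated libraries for the slope, the length of all exons for levels per kilobase, and each library left out. Positions and lengths came from GENCODE 44, near-identical transcripts from minimap2 2.31-r1302 (at least 50% of a transcript at 95% identity), and promoters from RefSeq. R 4.3.3 and Python 3.11.15 were used. Within-library ratios of NDST1 to NDST2 and of HS6ST1 to SULF2 were planned and not computed, since NDST2 and SULF2 had at most 4 reads and 1 read in a library.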

Additional observations from a re-analysis of the deposited data

How the results depend on the processing

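The count of 6 members called at 500 nM and for the slope held in all alternatives, and no called value changed sign. Uncalled values of EXT2, EXTL2, EXTL3, HS2ST1 and NDST1 at 0.5 nM, of EXTL3 at 5 nM and of the slopes of EXT2 and NDST1 did so in some alternatives. Over all alternatives the count at 50 nM was 5 to 7 and over the step from 5 to 50 nM 4 to 6. At 5 nM it was 1 with the 6 libraries of the comparison alone, EXT1 (−0.14, adjusted p = 0.0266, limma). With single libraries left out the count ranged from 0 to 1 at 0.5 nM, at 5 nM and from 50 to 500 nM. Per kilobase of all exons, DMSO levels were 375 for EXT1, 244 for NDST1, 148 for GLCE, 138 for EXT2, 129 for EXTL2, 112 for HS6ST1, 105 for HS2ST1 and 53.6 for EXTL3, so GLCE came before EXT2. All genes called numbered 159 at 0.5 nM and 21 with the 6 libraries alone (19 to 388 with single libraries left out), and 295 at 5 nM and 846 with the 6 libraries alone (113 to 623). At 50 nM they numbered 814, and 560 to 1277 with single libraries left out. The cause of these shifts was not tested. Leaving out a library outside a comparison moved its adjusted p but not its fold change. Without replicate 2 of 0.5 nM, EXT1 at 5 nM stayed at −0.14 and NDST1 at 50 nM at −0.20. TMM and equal totals moved the median of all genes by at most 0.0031 (log2).

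With the replicate number as a block, 0, 0, 6 and 6 members were called at 0.5, 5, 50 and 500 nM, 0, 4 and 0 over the neighboring steps and 6 for the slope. All genes called numbered 163, 315, 867 and 2506 at the 4 doses. Under the block HSPG2 was called higher at 500 nM (adjusted p = 0.0203, limma). Same-numbered libraries correlated at −0.09 to 0.10 over 30 pairs, each short of 0.1, and the reported fit holds no block. Of the 15 libraries, 9 correlated best with their own number, a count that carries no test. The median r was 0.01 for same-numbered pairs and −6e-04 for other pairs, whose highest r of 0.12 was above that of same-numbered pairs. Whether the numbers pair the libraries is not given by the design and was left undecided.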
